A study of Rattus norvegicus with 4 samples.

Results

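The genes described here encode channels that carry or tune the electrical impulse of the heart: the sodium channel β subunit Scn4b, the pacemaker channels Hcn2 and Hcn4, the T-type calcium channels Cacna1g and Cacna1h, and the connexins Gja5 and Gjc1. They were picked by symbol from a list of names, with no threshold on their values but with earlier results of these data known, and all 7 were found among the 15731 genes of the RPKM table. They were measured in cultured ventricular cardiomyocytes of wild type neonatal Wistar rats, labelled as postnatal day 1, although a protocol in the labels gives the day of birth. Cultures were transfected with a synthetic mimic of hsa-miR-25-3p, hsa-miR-93-5p or hsa-miR-106b-5p, shortened below to miR-25, miR-93 and miR-106b, or with cel-miR-67, a worm miRNA that served as control. The dose is given as 25 nM in one place of the labels and as 25 mM in another, and RNA was taken 72 h after transfection, although a drawing in the study gives a shorter time. Each of the 4 mimics has 1 library, and the labels name no animals, so that differences between mimics have no replicate check and no test. The cultures came from ventricles separated from the atria, were enriched by letting other cells attach first, and can still hold non-muscle cells.

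Voltage-gated sodium channels drive the fast upstroke of the ventricular action potential, and their β subunits alter gating and membrane targeting of the pore subunit. HCN channels open on hyperpolarisation and carry the funny current of pacemaker cells, while T-type calcium channels open at more negative voltages than the L-type channel Cacna1c. Both are abundant in embryonic ventricular muscle and are largely restricted to the conduction system in the adult. Connexins assemble into gap junctions that pass current from cell to cell. Gja5 encodes connexin 40 of atrial muscle, the fast conduction system and arterial endothelium, and Gjc1 encodes connexin 45 of the nodes and the early heart.

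The mature sequences are shown because the mimics fall into 2 groups by the seed, the bases at positions 2 to 8 through which a miRNA pairs with its targets. They are the rat sequences of RefSeq, 5′ to 3′, with the seed in capitals, and lie on the minus strand of chromosome 12 of the GRCr8 build, at chr12:22157103-22157123, chr12:22156894-22156916 and chr12:22156652-22156673. miR-106b and miR-93 share the seed AAAGUGC, and miR-25 has the seed AUUGCAC.
rno-miR-106b-5p: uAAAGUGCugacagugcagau
rno-miR-93-5p: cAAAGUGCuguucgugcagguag
rno-miR-25-3p: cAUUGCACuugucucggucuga

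Levels are RPKM values, reads corrected for gene length and for library size, and ratios are RPKM values of one library over another on the log2 scale, without a pseudocount. Whole numbers of reads could be recovered from the values, so each ratio is followed by its 95% interval, which covers counting error only and says nothing of the spread between cultures. A gene was compared when its RPKM was above 1.0 in both libraries, and was counted as higher or lower past 1.3-fold. Reads on listed genes ranged from 15175185 to 18797234 per library.

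With miR-106b, 2 of the 6 channel genes above the minimum were higher than with cel-miR-67, Scn4b and Cacna1h, and none was lower, where 11.9% of 11296 compared genes were higher and 12.7% were lower. With miR-93, 4 of 7 were higher, Scn4b, Cacna1h, Gja5 and Hcn4, and none was lower, against 15.1% and 15.6% of 11280 genes. With miR-25, 4 of the 7 were above the minimum in both libraries, of which 3 were lower, Hcn4, Cacna1g and Gja5, and none was higher, against 22.6% and 19.3% of 11198 genes. These were in part other genes than above: Hcn4 and Gja5 were higher with miR-93, but Cacna1g was within the limit with miR-106b and with miR-93. Scn4b, Cacna1h and Hcn2 were below an RPKM of 1.0 with miR-25 and so are not in that count, and their values are given below. The median log2 ratio of the 7 genes, whatever their level, was 0.23 with miR-106b, 0.38 with miR-93 and -1.07 in the miR-25 library, while the median of all compared genes lay between -0.01 and 0.00. These 3 comparisons share the control library, and the sequencing measured RNA of whole cultures, in which fewer cells of a type and less RNA per cell cannot be told apart.

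**Figure D1:**
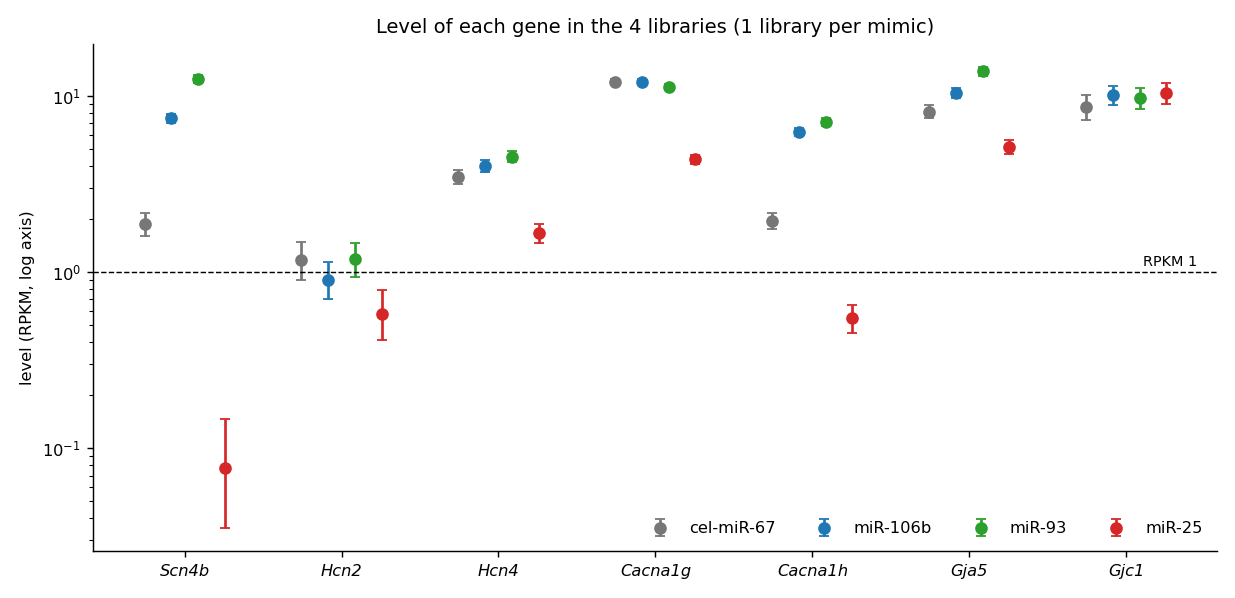
RPKM (log axis) of the 7 genes, 1 point for each of the 4 libraries, with exact 95% Poisson intervals of the reads. The miR-25 point is the lowest for 6 genes, all but Gjc1, and the Scn4b values span the widest range, from 0.0773 to 12.4 RPKM.

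Scn4b (ENSRNOG00000026679), whose product is linked to the pore subunit by a disulphide bond and favours resurgent sodium current, had the widest range of the 7 genes. Its level was 1.87 RPKM with cel-miR-67, 7.43 with miR-106b, 12.4 with miR-93 but only 0.0773 with miR-25, and these values rest on 181, 944, 1451 and 9 reads. The miR-93 library was thus 161-fold above the miR-25 library, with the control between them, and all neighbours in this order differed beyond counting error. Compared with cel-miR-67, Scn4b was 3.98-fold higher with miR-106b, a log2 ratio of 1.99 (95% interval 1.76 to 2.23), and only 26 of 11828 genes above 1.0 RPKM in either library had a larger ratio. With miR-93 it was 6.65-fold higher, a log2 ratio of 2.73 (2.51 to 2.97), and 19 of 11910 genes had a larger one.

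With miR-25, Scn4b was 24.2-fold lower, a log2 ratio of -4.60 (-5.75 to -3.64) that rests on 9 reads. Its level with miR-25 has a Poisson interval of 0.0353 to 0.147 RPKM, below the level in each other library by a wide margin. No gene had a smaller ratio among 11918 that were above 0 in both libraries and above 1.0 RPKM in either, which leaves out 3 genes at 0 in one of them and above 1.0 in the other. The same held for miR-25 against miR-106b, with a log2 ratio of -6.59 (-7.72 to -5.66) among 11976 genes, and against miR-93, with -7.33 (-8.46 to -6.40) among 12022 genes.

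Scn3b, a non-covalently bound β subunit, was at 22.8 RPKM with cel-miR-67, 14.1 with miR-106b, 1.49 with miR-93 and 24.6 in the miR-25 library. With miR-93 it was 15.3-fold lower than in the control, a log2 ratio of -3.94 (-4.18 to -3.70) from 158 against 2011 reads, so that the culture with the highest Scn4b had the lowest Scn3b. Scn1a, a pore subunit best known from neurons, was highest in the control at 4.90 RPKM, against 2.55, 2.25 and 1.17. Of 12 symbols listed as further sodium channel subunits 9 were found and 2 passed the minimum, Scn1a and Scn3b. Both were lower with miR-106b and with miR-93, while with miR-25 Scn1a was lower and Scn3b stayed within the limit.

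Of 10 proteins that bind or position the sodium channel, all compared, 1 was lower with miR-106b and none was higher. Among all compared genes, 11.9% were higher and 12.7% lower in the miR-106b library, so these counts were not above those shares. The miR-25 library had 1 higher and 2 lower, also not above its shares of 19.3% and 22.6%. In the miR-93 library 4 were higher and 2 lower, above its shares of 15.1% and 15.6%. Fgf12, an intracellular fibroblast growth factor homologue that shifts channel inactivation, was higher with miR-93, at 4.16 against 1.92 RPKM (log2 ratio 1.12, 0.65 to 1.60). Pkp2, the desmosomal plakophilin, was lower with miR-93, at 33.7 against 63.8 RPKM (log2 ratio -0.92). With miR-25, Cav3, the muscle caveolin, was at 51.2 against 90.5 RPKM (log2 ratio -0.82), and Fgf13 was at 3.26 against 5.42 RPKM (log2 ratio -0.74).

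Hcn4 (ENSRNOG00000009450), the main pacemaker channel of the sinus node, was at 3.47 RPKM with cel-miR-67, 4.0 with miR-106b, 4.52 with miR-93 and 1.66 in the miR-25 library. The miR-25 library stood apart, 2.09-fold below the control, while the other values lay close together. The log2 ratio to control was -1.07 (-1.30 to -0.84) with miR-25, 0.21 (0.03 to 0.38) with miR-106b and 0.38 (0.21 to 0.56) with miR-93, the last of which lay just past the limit and was inside it with a pseudocount of 0.1 or 1 RPKM or a limit of 1.5-fold. In order of level, miR-93, miR-106b, cel-miR-67 and miR-25, each neighbour differed beyond counting error.

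Hcn2 (ENSRNOG00000008831), the faster HCN channel of ventricular and conduction tissue, was close to the minimum level for a comparison, at 1.16, 0.90, 1.18 and 0.578 RPKM in the same order of libraries, from 67, 68, 82 and 40 reads. Both the miR-106b and the miR-25 value were below 1.0 RPKM. The miR-93, cel-miR-67 and miR-106b values did not differ from one another beyond counting error, with log2 ratios to control of 0.02 (-0.46 to 0.51) with miR-93 and -0.37 (-0.88 to 0.14) with miR-106b. The miR-25 value differed from them beyond counting error, with a log2 ratio to control of -1.01 (-1.61 to -0.42) and to miR-106b of -0.64 (-1.24 to -0.05).

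Hcn4 supplied most of the summed HCN level in each library, from 74.1% with miR-25 to 81.6% with miR-106b. The log2 change of the Hcn4 to Hcn2 ratio over control was 0.58 (0.04 to 1.12) with miR-106b, 0.36 (-0.16 to 0.88) with miR-93 and -0.06 (-0.69 to 0.59) in the miR-25 library. With miR-25 both HCN genes were thus lower by amounts that counting error cannot separate. Of the 6 further HCN channels and partners listed 3 were found: Hcn3 and the auxiliary subunit Kcne2 had at most 12 reads in a library, and Popdc2, a cAMP-binding membrane protein, stayed within the limit at 149, 142, 124 and 134 RPKM.

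Cacna1g (ENSRNOG00000060528), which encodes Cav3.1, was the best covered of the 7, with 1099 to 3297 reads, and was at 11.9 RPKM with cel-miR-67, 12.0 with miR-106b, 11.2 with miR-93 and 4.36 in the miR-25 library. The first values lay together and the miR-25 library stood alone below them, 2.74-fold under the control. The log2 ratio to control was 0.00 (-0.07 to 0.08) with miR-106b, -0.09 (-0.17 to -0.01) with miR-93 and -1.45 (-1.56 to -1.35) in the miR-25 library.

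Cacna1h (ENSRNOG00000033893), which encodes the nickel-sensitive Cav3.2, was at 1.94 RPKM with cel-miR-67, 6.26 with miR-106b, 7.07 with miR-93 but 0.545 with miR-25, and these values rest on 347, 1465, 1520 and 117 reads. Like Scn4b it was above the control with the mimics of the AAAGUGC seed and below it with miR-25, and all neighbours in its order of levels differed beyond counting error. It was 3.22-fold higher with miR-106b (log2 ratio 1.69, 1.52 to 1.86) and 3.64-fold higher with miR-93 (1.86, 1.69 to 2.03), ratios exceeded by 48 and 60 genes. With miR-25 it was 3.56-fold lower (log2 ratio -1.83, -2.15 to -1.53), and 129 of 11918 genes had a smaller ratio.

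The makeup of the T-type pair differed accordingly. Cacna1h held 14.0% (95% interval 12.7 to 15.4) of the summed Cacna1g and Cacna1h level with cel-miR-67, 34.3% (32.9 to 35.7) with miR-106b, 38.7% (37.2 to 40.1) with miR-93 and 11.1% (9.30 to 13.2) in the miR-25 library. The sum itself was 13.9, 18.2, 18.3 and 4.90 RPKM. With miR-106b and miR-93 the larger sum came from Cacna1h, and with miR-25 both genes were lower and Cacna1h more so, the log2 change of the Cacna1h to Cacna1g ratio being -0.38 (-0.71 to -0.06).

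**Figure D2:**
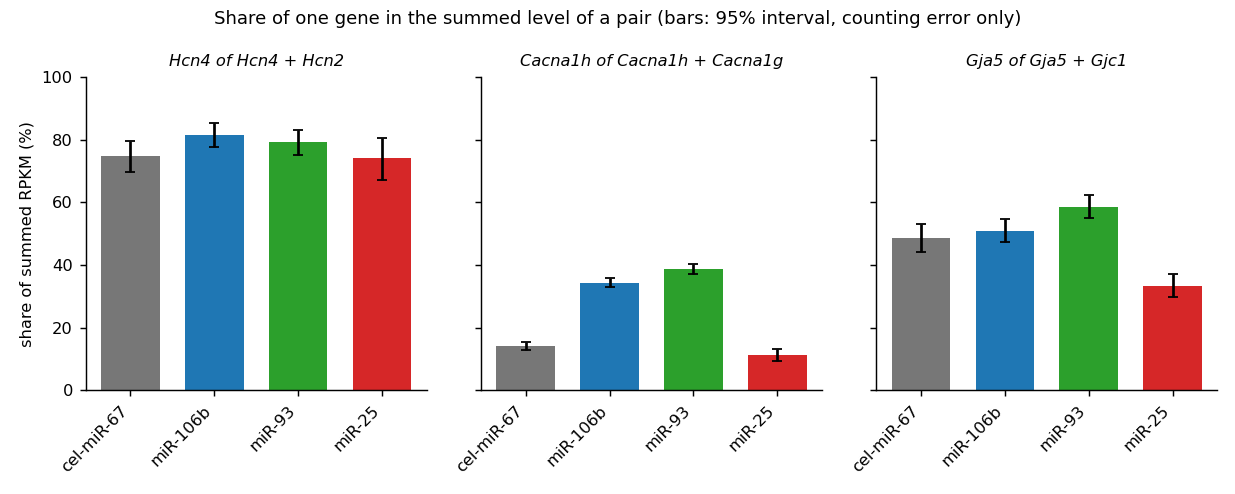
Share of one gene in the summed RPKM of a pair (%), 1 bar per library, with 95% intervals that cover counting error only. The Cacna1h share runs from 11.1% with miR-25 to 38.7% with miR-93 and the Gja5 share from 33.2% to 58.6% in the same libraries, while the Hcn4 share stays between 74.1% and 81.6%.

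The third T-type gene, Cacna1i, had at most 6 reads in any library. Of 15 further calcium channel subunits listed 14 were found and 5 compared. None of these passed the limit with miR-106b, and 1 was lower with miR-93. In the miR-25 library 1 was higher and 2 were lower. These counts are too small to weigh against the shares of all genes. The L-type pore subunit Cacna1c stayed within the limit throughout, at 7.82, 7.09, 7.97 and 6.71 RPKM. Cacna2d1, an α2δ subunit that brings channels to the membrane, was at 27.2, 23.5, 14.9 and 14.0 RPKM, and the β subunit Cacnb2 was at 26.9, 27.1, 21.7 and 14.8. With miR-25 their log2 ratios were -0.96 (-1.04 to -0.87) and -0.86 (-1.02 to -0.71), nearer to 0 than that of Cacna1g, and Cacnb3 was higher at 6.23 against 4.51 RPKM.

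Gja5 (ENSRNOG00000017484) was at 8.12 RPKM with cel-miR-67, 10.4 with miR-106b, 13.7 with miR-93 and 5.13 in the miR-25 library, in the same order as Scn4b, Hcn4 and Cacna1h but over a 2.68-fold range. Its log2 ratio to control was 0.36 (0.21 to 0.51) with miR-106b, at 1.28-fold just inside the limit, 0.76 (0.61 to 0.91) with miR-93 and -0.66 (-0.85 to -0.48) in the miR-25 library. Each step of this order was beyond counting error.

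Gjc1 (ENSRNOG00000048838) was the one of the 7 for which no difference exceeded counting error on the recovered reads. Its level was 8.58 RPKM with cel-miR-67, 10.0 with miR-106b, 9.69 with miR-93 and 10.3 in the miR-25 library, on 155 to 238 reads, and all 6 intervals between libraries include 0. Its log2 ratio to control of 0.27 (-0.04 to 0.57) with miR-25 has an interval that reaches past 1.3-fold, so that the reads do not exclude a difference of that size. Its recovered length of 797 bases is the shortest of the 7, and a factor shared by its reads in all libraries could not be seen. In that case its intervals would be narrower, and some might not include 0.

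The Gja5 share of the summed Gja5 and Gjc1 level was 48.6% with cel-miR-67, 50.9% with miR-106b, 58.6% with miR-93 and 33.2% in the miR-25 library. The log2 change of their ratio over control was 0.13 (-0.21 to 0.47), 0.58 (0.24 to 0.92) and -0.93 (-1.28 to -0.57) for miR-106b, then miR-93, then miR-25. Gja1, connexin 43 of working ventricular muscle and by level the main connexin here, was at 71.7, 71.7, 110 and 74.6 RPKM, a log2 ratio of 0.62 (0.57 to 0.67) with miR-93. Relative to Gja1, Gja5 was at 0.113, 0.145, 0.125 and 0.0688, so that with miR-93 both connexins were higher and their ratio did not differ from control beyond counting error (log2 change 0.14, -0.02 to 0.29). Gja3, best known from the lens, was higher with each mimic, at 6.23, 8.77 and 5.23 against 3.16 RPKM, and Gja4 was higher with miR-25 at 1.89 against 1.17 RPKM. Of 16 further connexins listed 7 were found, and none of the 2 or 3 compared with each mimic was lower.

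**Figure D3:**
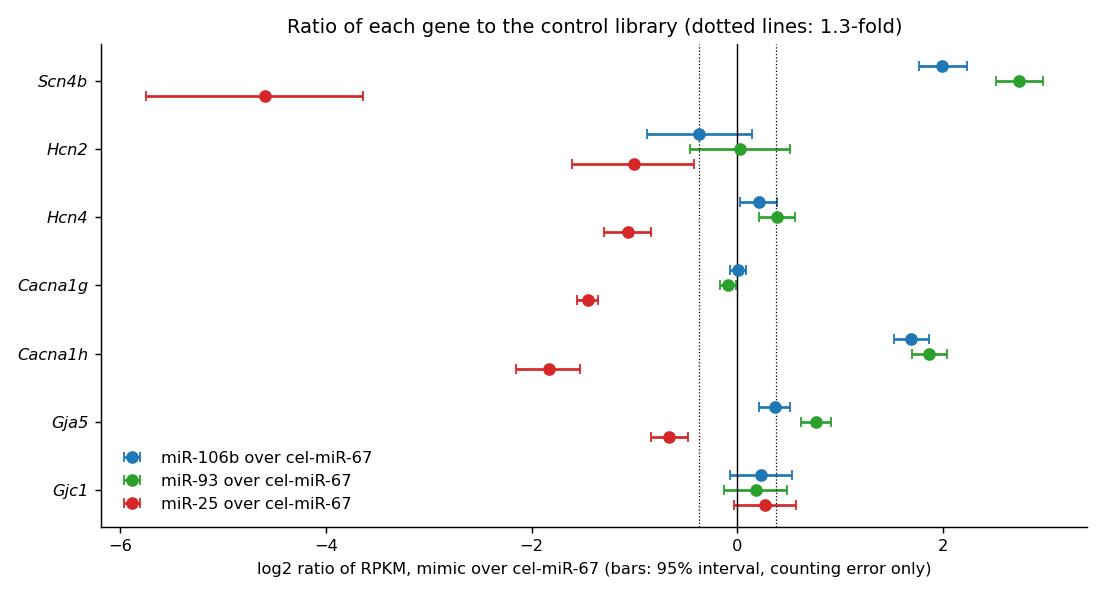
Log2 ratio of RPKM to the cel-miR-67 library for each gene and mimic, with 95% intervals that cover counting error only and dotted lines at 1.3-fold. Scn4b and Cacna1h lie far to the right with miR-106b and miR-93 (1.99, 2.73, 1.69 and 1.86) and to the left with miR-25 (-4.60 and -1.83), and the Gjc1 intervals on the recovered reads all include 0.

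The mimics were also set directly against each other. With miR-93 over miR-106b, 2 of 6 compared genes were higher, Scn4b (log2 ratio 0.74, 0.62 to 0.86) and Gja5 (0.40, 0.27 to 0.52), and none was lower, against 7.30% and 8.21% of 11391 genes. Hcn4 (0.17, 0.02 to 0.33) and Cacna1h (0.18, 0.07 to 0.28) differed in the same direction within the limit, and Cacna1g (-0.09) in the other. With miR-25 over miR-106b and over miR-93, 3 of 4 compared genes were lower each time, Hcn4, Cacna1g and Gja5, and none was higher. In the first, 23.0% of 11183 genes were lower and 22.1% higher, and in the second 23.0% of 11198 were lower and 22.1% higher. Below the minimum in the miR-25 library, Cacna1h had log2 ratios of -3.52 to miR-106b and -3.70 to miR-93, with 14 and 23 genes at smaller ratios.

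Among 19 transcription factors that pattern chambers and the conduction system, 14 were compared. Of these, 1 was higher and 1 lower with miR-106b. The miR-93 library had 7 higher and none lower, and the miR-25 library 1 higher and 3 lower. Only the 7 higher with miR-93 were above the matching share of all genes, which was 15.1%. Irx4, a ventricular homeobox factor, was at 8.47, 13.1, 17.2 and 2.46 RPKM, the same order of libraries as Scn4b. Etv1, an ETS factor of fast-conducting tissue, was lower with miR-106b, at 2.12 against 5.30 RPKM. Irx3, which acts in the ventricular conduction system, was higher with miR-93, at 18.1 against 9.34 RPKM, and Hopx was lower with miR-25, at 9.40 against 17.6 RPKM. Nkx2-5, a core cardiac factor, was at 29.2, 36.7, 42.1 and 53.7 RPKM, higher with miR-93 (log2 ratio 0.52) and with miR-25 (0.88).

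Tbx5, a factor of atrial and conduction muscle, was at 3.01, 3.40, 4.69 and 3.10 RPKM and was past the limit with miR-93. Tbx3 and Shox2, regulators of nodal identity, were below the minimum, Tbx3 at 0.262 to 0.539 RPKM and Shox2 at no more than 0.449 RPKM. Rest, a repressor of neuronal and fetal cardiac genes that include HCN and T-type channels, was at 7.93, 7.98, 8.18 and 7.44 RPKM, and its 3 intervals to control include 0.

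Over all 6 lists of further pathway genes, 78 symbols of which 62 were found, 2 of 34 compared genes were higher and 4 lower with miR-106b, 13 and 5 of 35 with miR-93, and 5 and 8 of 35 with miR-25. These are shares of 5.88% and 11.8%, 37.1% and 14.3%, and 14.3% and 22.9%, beside the shares of all genes given above. The medians of their log2 ratios were 0.01, 0.22 and -0.13.

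**Figure D4:**
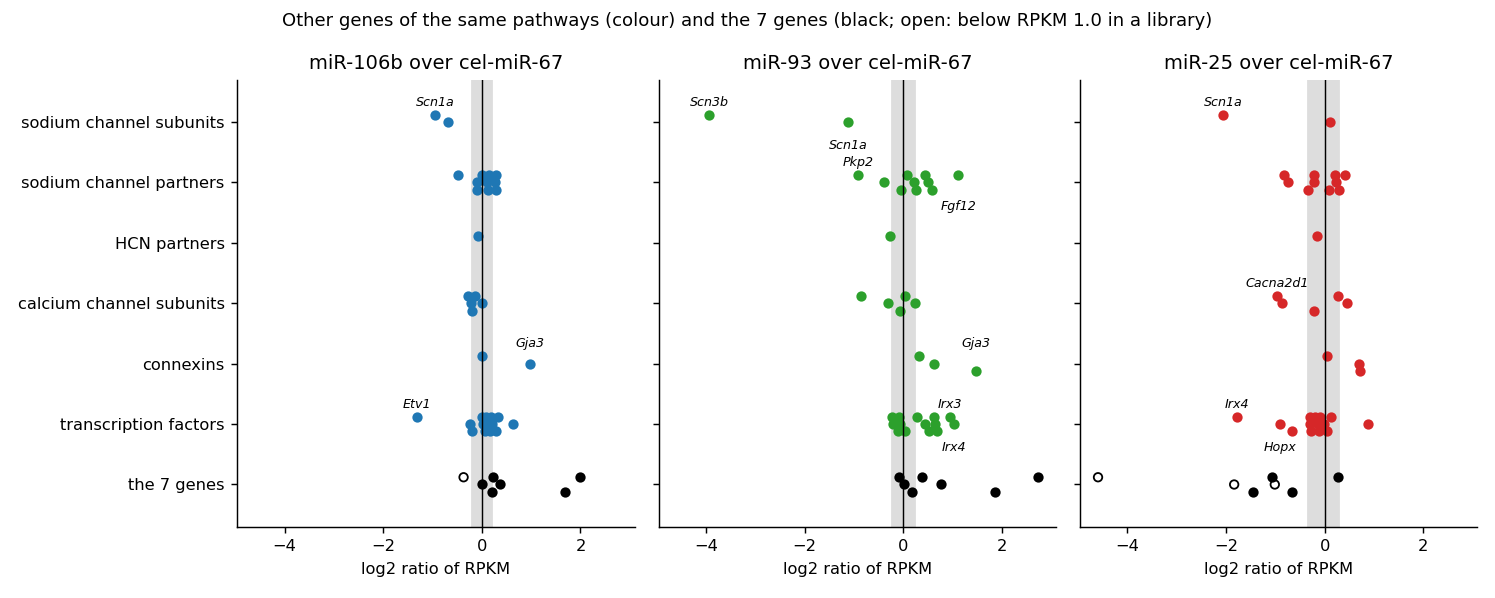
Log2 ratio of RPKM to cel-miR-67, 1 panel per mimic and 1 point per gene, for 6 lists of further pathway genes (colour) and the 7 channel genes (black, open where a level is below 1.0 RPKM), with the middle 50% of all compared genes in grey. Most pathway genes lie in or near the grey band, Scn3b lies at -3.94 with miR-93, and the lowest points with miR-25 are Scn4b at -4.60, Scn1a at -2.06 and Cacna1h at -1.83.

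Markers of other cell types and of the muscle itself also differed between libraries, not always in the direction of the channel genes. Their counts past the limit are to be read beside the shares of all genes given above. As a check of the labelled cell type, 9 cardiomyocyte markers, of 10 listed, summed to between 8618 and 13334 RPKM, against 5.75 to 8.56 for 7 endothelial markers and 7.93 to 9.93 for 7 neuronal and glial markers. Markers of other cells were not all this low, with sums of 599 to 2064 RPKM for 6 smooth muscle markers and 317 to 821 for 8 fibroblast markers. With miR-25 all 9 cardiomyocyte markers were lower than in the control, with a median log2 ratio of -0.66, and 4 of 5 ventricular markers were lower. Tnni3, the adult troponin I, was not typical of the cardiomyocyte markers. It had the lowest log2 ratio of them with miR-25, -4.47, and was the only one higher with miR-106b and with miR-93. Its level was 351 RPKM with cel-miR-67, 543 with miR-106b, 495 with miR-93 and 15.9 in the miR-25 library. In the same library 4 of 6 smooth muscle markers were higher, their sum at 2064 against 757 RPKM, and 7 of 8 fibroblast markers were lower and 1 (Lum) higher, their sum at 317 against 821. The ratios of 5 of the 7 channel genes with miR-25 were below the median of the cardiomyocyte markers, Gja5 was level with it and Gjc1 was above it. Apart from Tnni3, these markers ranged with miR-25 from -2.30 (Mb) and -1.29 (Ryr2) to -0.42 (Pln). Of the channel genes only Scn4b had a ratio below that of Mb. The part of these shifts in the result was not tested.

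With miR-106b and miR-93, 1 of 9 cardiomyocyte markers was higher and 3 were lower. Of 6 compared atrial markers 3 were higher and 1 (Sln) was lower with miR-106b. With miR-93, 4 of them were higher and 2 (Nppa and Sln) were lower, and with miR-25, 2 were higher and 1 was lower. Of 5 ventricular markers 2 were higher and none was lower with miR-106b, and 2 were higher and 1 was lower with miR-93. Fibroblast markers were lower in part as well, 5 of 8 with miR-106b (median log2 ratio -0.55) and 4 of 8 with miR-93 (-0.29), and none was higher. Myl7, the atrial myosin light chain, was at 18.8, 81.2, 155 and 11.6 RPKM, the order of libraries that Scn4b, Cacna1h and Gja5 also had. Nppa, another atrial marker and a gene of stressed ventricles, ran the other way, at 1860, 1607, 261 and 4425 RPKM. The 6 arterial endothelial markers, listed because Gja5 is also an arterial gene, summed to 6.99, 6.63, 6.74 and 10.5 RPKM. Only 1 or 2 of them were above 1.0 RPKM in a library, and Hey1 was listed at 0 in the control. No other marker was at 0 in a library. The part of these atrial, ventricular and fibroblast shifts in the channel ratios was not tested.

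The genes most like each channel were found by the Euclidean distance of log2 levels centred on their own mean, over 10700 genes above 1.0 RPKM in all 4 libraries. Hcn4 was nearest to RGD1561694 (distance 0.0710) and Casp4 (0.0785), Cacna1g to Asb2 (0.0663) and Fam136a (0.0851), Gja5 to Fkbp4 (0.0307) and Gmpr (0.0720), and Gjc1 to Pigy (0.0122) and Pde12 (0.0140). Fkbp4, for one, was at 27.3, 35.5, 46.6 and 17.8 RPKM. With 4 libraries many genes share a pattern, and the distances are a description. Among the 7 themselves, Hcn4 lay closest to Gja5 (0.334) and to Cacna1g (0.362), and Scn4b was nearest to Cacna1h, at 2.80.

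The sequences before the start sites of Scn4b and Gja5, 2 genes with the same order of libraries, are shown to set the windows side by side. RefSeq promoter windows were found for 3 of the 7, Scn4b, Hcn2 and Gja5, and are given on GRCr8, a later build than the Rnor 6.0 of the deposited values. Motifs were searched on both strands and matches are in capitals. For the homeobox factor NKX2-5 the letters were AAGTG. For T-box factors they were GGTGTG. For zinc finger factors of the Gata family they were AGATAA. For bHLH factors the E-box was searched as CANNTG, which reads the same on both strands, and no match overlapped another. The Scn4b window, chr8:54343623-54343872 on the plus strand, holds 71.6% G and C and 2 E-boxes, both CAGCTG. The Gja5 window, chr2:187290977-187291226 on the plus strand, holds 54.8% G and C, 1 AAGTG and no E-box.
Scn4b: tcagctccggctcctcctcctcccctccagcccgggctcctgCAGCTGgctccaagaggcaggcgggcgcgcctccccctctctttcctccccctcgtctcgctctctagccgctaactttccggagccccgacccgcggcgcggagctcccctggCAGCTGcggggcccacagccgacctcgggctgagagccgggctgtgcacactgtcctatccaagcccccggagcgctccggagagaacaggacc
Gja5: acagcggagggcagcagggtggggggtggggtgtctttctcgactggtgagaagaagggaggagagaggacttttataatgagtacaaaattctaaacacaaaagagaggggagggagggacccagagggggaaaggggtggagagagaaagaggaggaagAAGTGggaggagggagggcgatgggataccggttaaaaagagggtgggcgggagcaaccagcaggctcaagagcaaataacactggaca

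Of 33469 promoter windows of 250 bases, 65.5% hold an E-box and 40.6% hold AAGTG on either strand, so that neither match is rare. The Hcn2 window holds 71.6% G and C, like that of Scn4b, and 1 E-box, and GGTGTG and AGATAA, held by 15.4% and 10.3% of all windows, are in none of these windows.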

How the data were processed

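RNA of rat cardiomyocyte cultures, 1 library for each of 4 mimics, was sequenced. The authors trimmed reads with Cutadapt, aligned them with STAR 2.7 to Rnor 6.0, rounded gene counts and computed RPKM with edgeR; the counting program is not given in the sources used here. The deposited RPKM values cover 15731 genes. Because reads are whole numbers, the reads and gene lengths behind the values were recovered for all 15731, each within 0.001 of a whole number. Where a length came out as a fraction, reads and length were multiplied by its denominator, so whole lengths are partly built in. The study states fewer reads per sample than were recovered. The recovery was checked on simulated data, where reads were recovered exactly for 96.4% of 15729 genes. Of 166 genes given a change there, 92.8% had a 95% interval that held it. These intervals used the simulated reads themselves, so they do not check intervals from recovered reads. Ratios are of RPKM without a pseudocount, for genes above 1.0 in both libraries, with a limit of 1.3-fold. Intervals at 95% are Clopper-Pearson for ratios and Poisson for levels, and cover counting error only. With 1 library per mimic no test was made. How reads shared by related genes were counted is not given, which could split channel paralogs.

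The members, the pathway and marker lists and the limits were chosen with earlier results of these data known. All 7 members are named; of each list, up to 4 genes past the limit with the largest change, with Gja1, Cacna1c, Rest, Tbx3, Tbx5, Nkx2-5 and Shox2; and the 2 nearest patterns of each member. Of the markers, Tnni3, Mb, Ryr2, Pln, Myl7, Nppa, Sln, Lum and Hey1 were named after their values were seen. Some genes that the lists and this rule would take in are not reported here. A symbol listed more than once, as 176 were, entered no list. Alternatives were other minima, pseudocounts, a limit of 1.5-fold, centring and a call that also needs the interval to exclude 0. Computations ran in Python 3.11.15 with pandas 2.3.3, scipy 1.17.1 and numpy 2.4.6, and plots were drawn with matplotlib 3.10.9.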

Additional observations from a re-analysis of the deposited data

How the results depend on the processing

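With an RPKM minimum of 2.0 the number of the 7 genes higher than control was 0 with miR-106b in place of 2. With miR-93 it was 2 in place of 4 (Hcn4 and Gja5). Scn4b and Cacna1h were at 1.87 and 1.94 RPKM in the control, so that neither was compared with it. This stricter minimum is the one that the methods of the study set for expressed genes, whereas its results state the looser one used here. With no minimum, 6 genes were lower with miR-25 than with cel-miR-67, miR-106b or miR-93, in place of 3, and with a minimum passed in either library 6, 5 and 6 were lower. For miR-93 over miR-106b, 1 gene (Scn4b) was higher with a pseudocount of 1 RPKM or a limit of 1.5-fold, in place of 2. Hcn4 was no longer higher with miR-93 than with cel-miR-67 with a pseudocount of 0.1 or 1 RPKM or a limit of 1.5-fold, which left 3 of 4 genes, and with a minimum of 2.0 it was no longer among the genes lower with miR-25 than in each other library, which left 2 of 3. Without a minimum, or with one passed in either library, Hcn2 joined the genes higher with miR-93 than with miR-106b, which made 3. Centring and intervals that exclude 0 changed none of the 12 counts. The shares of all genes given above hold for the main setting only. None is given for the other settings, so the counts there have no share of all genes to be read against. Of 42 log2 ratios none changed sign, and 39 stayed within their interval with a pseudocount of 0.1 RPKM, 25 with 1 RPKM and 42 with centring. No paired analysis was possible because each mimic has 1 library, and for the same reason no library could be left out. Depth limits Scn4b with miR-25, at 9 reads, and Hcn2, at 40 to 82 reads.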
